A study of Mus musculus with 10 samples.

Results

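Collagen chain genes were described here in MB-49 tumors, as the set of genes whose symbol is Col, a number, the letter a and a number. Of 24202 gene symbols in the deposited table, 39 met this rule: 10 fibrillar chains, 6 basement membrane (type IV) chains, 6 FACIT chains (fibril-associated collagens with interrupted triple helices) and 17 chains of other kinds. Bulk RNA was sequenced from 10 whole tumors grown under the skin of hLrrc32 knock-in mice, which carry a human LRRC32 gene in the host. The injected MB-49 cells are an established mouse bladder cancer line, and each mouse received 100000 of them. The treated mice (5 tumors) received the antibody PIIO-1 against GARP, the protein that LRRC32 encodes, injected into the peritoneum at 200 ug on day 6 and again on day 9. Sample titles and table columns call these tumors a4D3, and the treatment label, PIIO-1, was followed here. The control mice (5 tumors) received PBS, and day 10 is the day of collection in the design. All 10 tumors share the knock-in host and the same cell line, a single line grown outside the bladder. The labels name no separate animals, so the p-values below measure the spread between these samples, which may be technical in part.

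Collagens are proteins of 3 chains wound into a triple helix. Fibrillar chains (types I, II, III, V, XI, XXIV and XXVII) build the rope-like fibrils of connective tissue, which in most tissues are made by fibroblasts. Type IV chains form the sheet of the basement membrane, FACIT chains sit on the surface of fibrils, and type VI chains form beaded microfibrils around cells. GARP holds latent TGF-beta, and TGF-beta is a classical inducer of collagen gene transcription.

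2 start-site regions are shown first because the transcripts beside them, chains of 1 molecule, varied together across the tumors below. So did Col3a1 and Col1a1, genes of different molecules, and no background of other gene pairs was computed. Col4a1 and Col4a2 encode the 2 chains of the main type IV molecule and are transcribed in opposite directions on chromosome 8. In RefSeq for GRCm38.p6 their start sites lie 21 bases apart, each just inside the other gene, so the 2 genes overlap there. The 300-base windows around them (250 bases before the start and 50 after) share 78 bases, chr8:11312777-11312854, printed in capitals on both strands. The shared bases include the 50 after each start. The windows are chr8:11312777-11313076 on the minus strand for Col4a1 and chr8:11312555-11312854 on the plus strand for Col4a2.
Col4a1: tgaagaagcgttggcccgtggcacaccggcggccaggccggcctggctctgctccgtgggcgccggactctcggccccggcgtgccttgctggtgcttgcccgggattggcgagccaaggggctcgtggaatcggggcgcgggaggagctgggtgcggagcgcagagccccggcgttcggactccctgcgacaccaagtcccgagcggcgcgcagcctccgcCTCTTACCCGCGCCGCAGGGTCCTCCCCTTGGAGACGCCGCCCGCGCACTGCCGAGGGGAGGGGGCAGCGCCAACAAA
Col4a2: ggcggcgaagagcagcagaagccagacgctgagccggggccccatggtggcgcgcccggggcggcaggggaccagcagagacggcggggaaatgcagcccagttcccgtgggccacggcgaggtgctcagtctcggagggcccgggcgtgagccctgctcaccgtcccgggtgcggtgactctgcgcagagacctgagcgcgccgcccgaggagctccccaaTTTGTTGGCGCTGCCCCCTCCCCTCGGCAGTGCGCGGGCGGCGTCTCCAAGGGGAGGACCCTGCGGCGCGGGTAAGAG
Col1a2 (chr6:4505368-4505667, plus strand) and Col3a1 (chr1:45311288-45311587, plus strand) encode fibrillar chains of types I and III, which varied most among the abundant members, and capitals there mark the letters CCAAT on either strand.
Col1a2: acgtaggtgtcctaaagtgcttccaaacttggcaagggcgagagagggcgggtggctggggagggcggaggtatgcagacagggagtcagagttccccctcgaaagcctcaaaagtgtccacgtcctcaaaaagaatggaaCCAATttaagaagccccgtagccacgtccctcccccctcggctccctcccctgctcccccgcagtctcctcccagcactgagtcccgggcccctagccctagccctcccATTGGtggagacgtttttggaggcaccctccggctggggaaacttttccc
Col3a1: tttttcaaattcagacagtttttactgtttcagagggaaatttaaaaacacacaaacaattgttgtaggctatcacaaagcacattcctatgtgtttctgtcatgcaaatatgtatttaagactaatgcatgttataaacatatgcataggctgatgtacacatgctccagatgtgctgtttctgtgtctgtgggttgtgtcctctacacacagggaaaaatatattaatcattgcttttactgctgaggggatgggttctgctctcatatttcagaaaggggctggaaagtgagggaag
The Col4a1 and Col4a2 windows held 74% and 73.7% G and C, the Col1a2 window 61% and the Col3a1 window 37.7%. CCAAT on either strand occurred 2 times in the Col1a2 window, 1 time each in the Col4a1 and Col4a2 windows and 0 times in the Col3a1 window. It was present in 10 of the 32 windows of collagen chain genes in the table and in 37.4% of all 32851 windows. GGGCGG, the GC box, occurred on either strand in 20 of the 32 windows and in 35.7% of all. Such matches describe letters only. Windows were at hand for 30 of the 39 genes, not including Col1a1.

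Levels are normalized counts, which are gene reads divided by a scaling factor of each tumor. Reads in genes numbered from 18843192 in PBS tumor 4 to 37581521 in PBS tumor 3, so that 3 reads are worth between 2.45 and 4.68 normalized counts. Collagen chain genes together took 0.336% ± 0.0316 (SD, n = 5) of the reads of a PBS tumor and 0.331% ± 0.0441 (SD, n = 5) of those of a PIIO-1 tumor. On the first 2 principal components of all genes, PIIO-1 tumor 5 and PBS tumor 4 lay farthest out. Krt8 and Krt18, keratins of simple epithelium, led the epithelial marker list, whose sum lay between 81076 and 101901 in all 10 tumors. These 2 genes made up nearly all of it, with means of 56281 and 31214 under PBS and 59166 and 33496 under PIIO-1. Other genes of the list were far lower, such as Cdh1 (468 and 762) and Epcam (24 and 17.7). The urothelial marker Upk3a was at 0 in some tumors. The 5 red blood cell markers each had an unadjusted limma p under 0.05 in the direction of PIIO-1, as had 2.86% of all genes. After adjustment over all genes tested, 0 of the 5 passed. The summed level of these markers ran from 5488 to 12848 under PBS and from 8372 to 58643 under PIIO-1. PIIO-1 tumor 5 held the highest sum, while PIIO-1 tumors 1 and 2 lay inside the PBS range. The leukocyte list, led by Ptprc and Lyz2, summed to between 18070 and 30805 under PBS and between 20562 and 40585 under PIIO-1. At an unadjusted limma p under 0.05, Krt14 (1 of 2 tested keratinocyte markers) and Cdh1 (1 of 7 epithelial) were also higher in PIIO-1 tumors. So were Itgam (1 of 6 leukocyte) and Ttn (1 of 3 skeletal muscle), and each of the 4 had an adjusted p of 0.837. The part of the cells behind these markers in the collagen values was not tested.

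The most abundant collagen transcripts of these tumors were a multiplexin, 2 basement membrane chains, a type VI chain and a type V chain, and those of types I and III were lower. Per kb of exon, the highest mean over 10 tumors was that of Col18a1 (type XVIII, whose end fragment is endostatin), with 4638 normalized counts per kb. Next came Col6a1 (2107 per kb), Col4a1 (2097), Col5a3 (1959) and Col4a2 (1332). Col1a1 and Col1a2, which encode the chains of type I collagen, stood at 211 and 78.8 per kb, and Col3a1 at 143. Per kb of the longest transcript instead, the same 5 genes led, with Col18a1 at 5820 (rank 1) and Col4a1 at 2366 (rank 2), while Col1a2 rose to 183 and Col3a1 to 252. As a share of all collagen normalized counts per kb of exon, fibrillar chains held 18% ± 1.02 under PBS and 18.4% ± 0.98 under PIIO-1. Basement membrane chains held 24.9% ± 0.674 and 24.5% ± 1.49, and FACIT chains 3.41% ± 0.2 and 3.48% ± 0.264 (SD, n = 5 each). The 2 multiplexins, Col15a1 and Col18a1, held 32.3% ± 0.862 and 30.8% ± 0.895. These shares are descriptions with no test.

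**Figure D1:**
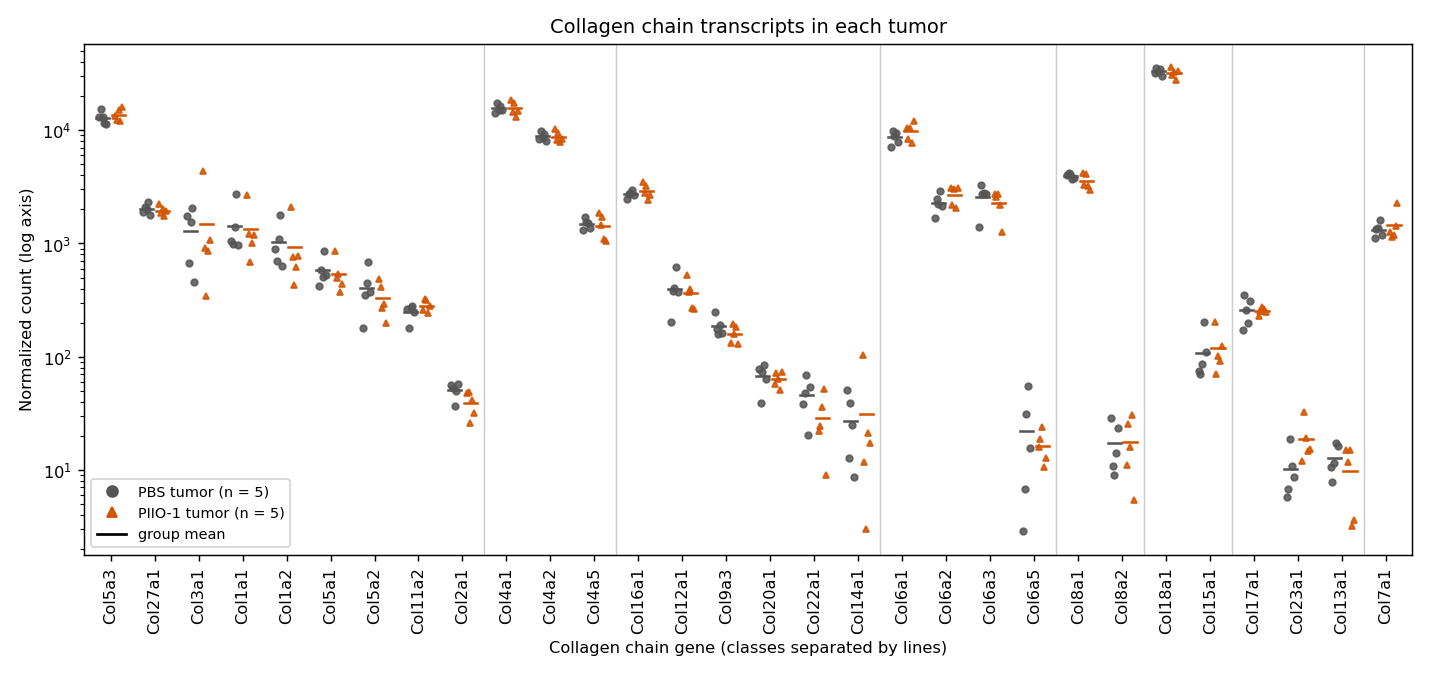
Normalized counts (log axis) of the 30 collagen chain genes with a mean of at least 10, by class, with 1 point per tumor (circles PBS, triangles PIIO-1, n = 5 each) and bars at group means. Col18a1, Col4a1, Col5a3, Col6a1 and Col4a2 lie highest with tight points, while the tumors of Col3a1 spread from 344 to 4328.

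Whether PIIO-1 shifted collagen transcripts was asked by the comparison of 5 PIIO-1 with 5 PBS tumors, on log2(normalized count + 1) by limma with adjustment over all genes tested. No collagen chain gene passed: 30 of the 39 had a mean of at least 10 normalized counts and were tested, and 0 of 30 were called, beside 0 of 16767 genes in all (0%). edgeR also called 0 of the 30 and 0% of all genes. DESeq2 called 0 of the 30 and 1 gene in all (0.00596% of the 16767, with or without an adjusted p). It gave no adjusted p to tested members with a mean of 561 (Col5a1) or less, Col23a1 among them. Those members could not be called by DESeq2. At an unadjusted limma p under 0.05 there was 1 collagen gene of 30 (3.33%), beside 5.63% of all genes; it was higher in PIIO-1 tumors, as were 2.86% of all genes at that p. The mean log2 value of 11 of the 30 was higher in PIIO-1 tumors and that of 19 lower, where 51.1% of all genes were higher. By the arithmetic mean of normalized counts 12 were higher, and the sign of 5 (Col3a1, Col6a5, Col8a2, Col14a1 and Col17a1) differed between these measures. Higher and lower refer to mean log2 values in the counts that follow. The median difference, PIIO-1 minus PBS, was -0.054 over the 30 and 0.0027 over all genes tested. For 0 of the 30 did the groups fail to overlap (0.853% of all genes). The split of signs rests on single tumors: without PBS tumor 4, 16 of the 30 were higher with a median of 0.015, and without PIIO-1 tumor 4, 16 were higher with a median of 0.0067. Without PIIO-1 tumor 5, 15 were higher, with a median of -0.021. In bulk tumors, fewer cells of a type and less RNA per cell cannot be told apart.

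**Figure D2:**
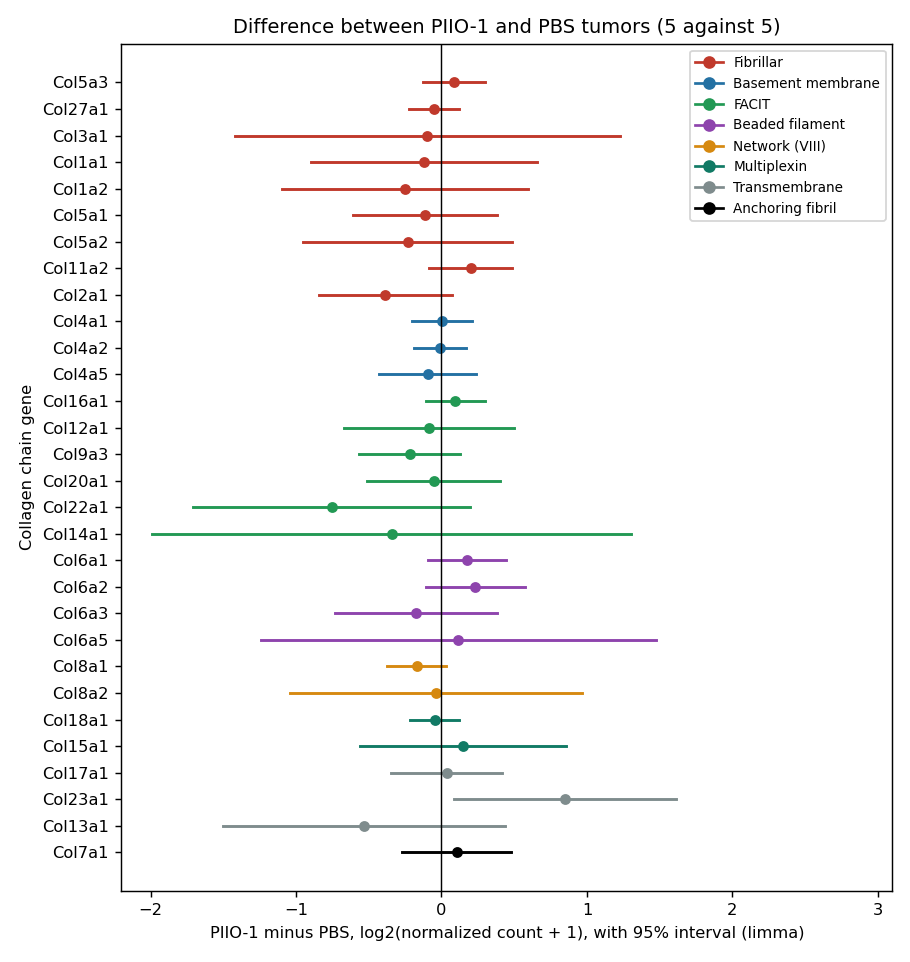
Difference between PIIO-1 and PBS tumors on the log2(normalized count + 1) scale for each of the 30 tested collagen chain genes (points) with its 95% interval from limma (lines), coloured by class. Every interval except that of Col23a1 includes 0, and those of Col3a1 and Col14a1 are far wider than those of Col4a1 or Col18a1.

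Among the fibrillar chains, 9 of 10 were tested and 0 were called, with 2 higher, 7 lower and a median difference of -0.11. Type I and III transcripts varied several-fold from tumor to tumor inside both groups. Col1a1 (chromosome 11, 94936224 to 94953042, plus strand, GRCm38) stood at 1062, 997, 1387, 2723 and 974 normalized counts in PBS tumors 1 to 5. In PIIO-1 tumors 1 to 5 it stood at 2658, 1202, 684, 1000.2 and 1178. PBS tumor 4 and PIIO-1 tumor 1 thus held about the same high level, and the other 8 tumors lay at or below 1387. The difference was -0.12 (SE 0.35, 95% interval -0.90 to 0.66, adjusted p = 0.972), so the interval allows anything from 0.538 to 1.58 times the PBS level.

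Col3a1, the single chain of type III collagen, which accompanies type I in soft tissue, had the widest range of the abundant members. It stood at 1754, 673, 1554, 2061 and 456 in PBS tumors and at 4328, 909, 344, 853 and 1067 in PIIO-1 tumors. Both the highest and the lowest of the 10 values lay in the PIIO-1 group, 12.6-fold apart. The difference was -0.097 (SE 0.60), and it was -0.61 when PIIO-1 tumor 1 was left out and 0.30 when PIIO-1 tumor 3 was. edgeR and DESeq2, which compare means of reads and not of log values, gave 0.21 each. Col1a2, the partner of Col1a1, stood at 896, 704, 1086, 1796 and 636 under PBS and 2086, 764, 428, 622 and 773 under PIIO-1, differing by -0.25 (SE 0.39). Its lowest value was that of PIIO-1 tumor 3 and its highest that of PIIO-1 tumor 1. Without PBS tumor 4 its difference was -0.022.

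Col5a1 and Col5a2, chains of the type V collagen that starts fibrils, differed by -0.11 (SE 0.23) and -0.23 (SE 0.33). The Col5a2 value was -0.015 without PBS tumor 4 and -0.50 without PBS tumor 1. Col5a3, the third type V chain, behaved otherwise in level and spread. It stood at 13180.5, 15282, 13184, 11627 and 11401 in PBS tumors and at 13482, 12208, 15017, 12083 and 15945 in PIIO-1 tumors, differing by 0.087 (SE 0.098). The groups overlapped between 12083 and 15282, and the whole range was 1.4-fold. Per kb of exon Col5a3 (1959) thus lay far above Col5a1 (66). Col27a1, a fibrillar chain of cartilage matrix, stood at 1916, 2096, 2019, 2302 and 1781 under PBS and 2213, 1846, 2016, 1745 and 1920.3 under PIIO-1, differing by -0.054 (SE 0.078). All its values lay within 1.32-fold.

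The cartilage fibril genes were low. Col11a2 differed by 0.20 (SE 0.13) at means of 248 ± 39.5 and 283 ± 34.9, and Col2a1 by -0.39 (SE 0.21) at 50.7 ± 8.37 and 39.2 ± 9.98 (SD, n = 5 each). Col24a1 had a mean under 10 and ran from 0 to 16.6. Of 8 cartilage and bone markers 4 were in the table and 1 had a mean of at least 10. Their summed level lay between 31 and 44.9 in PBS tumors and between 31.8 and 50.3 in PIIO-1 tumors, with Matn1 and Dmp1 the highest.

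The basement membrane chains Col4a1 and Col4a2 were abundant and steady. Col4a1 (chromosome 8, 11198423 to 11312826, minus strand) stood at 14080.3, 17347, 15068, 16452 and 15009 in PBS tumors. In PIIO-1 tumors it stood at 18623, 14619, 17325, 13188 and 14773, so that the PIIO-1 group held both extremes. The difference was 0.0032 (SE 0.094, 95% interval 0.869 to 1.16 times the PBS level); it was negative under TMM or upper-quartile scaling (-0.0038 and -0.0024). Col4a2 (11312805 to 11449287, plus strand) stood at 8378, 9933, 8581, 9275 and 8061 under PBS and 10182, 8284, 9401, 7802 and 8292 under PIIO-1, and again PIIO-1 tumors 1 and 4 were the extremes. Its means were 8846 ± 754 and 8792 ± 974 (SD, n = 5 each), differing by -0.012 (SE 0.081). For both chains the interval is narrow, and a change of 1.5-fold either way lies outside it.

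Col4a5 differed by -0.096 (SE 0.15) at 1499 ± 157 and 1434 ± 359.7. Its partner chain Col4a6, which starts beside it on the X chromosome, did not reach a mean of 10, with values between 0.979 and 6.83. Col4a3 and Col4a4, chains known from kidney, lung and inner ear membranes, lay between 0 and 3.45 and between 4.88 and 13.1. In all, 3 of 6 type IV chains were tested and 0 were called, with 1 higher and 2 lower.

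Of the 6 FACIT chains all were tested and 0 were called, with 1 higher and 5 lower and a median difference of -0.15. Col16a1 had the highest mean of them, with 2468, 2725, 2767, 2968 and 2654 under PBS and 3485, 2772, 3234, 2416 and 2693 under PIIO-1 (difference 0.094, SE 0.093). Its highest values were in PIIO-1 tumors 1 and 3 and its lowest in PIIO-1 tumor 4, and the difference was 0.027 with PIIO-1 tumor 1 left out and 0.16 with tumor 4 of that group left out. Col12a1, which binds type I fibrils in tendon, dermis and tumor stroma, stood at 204, 382, 403, 618 and 375 in PBS tumors. In PIIO-1 tumors it stood at 526, 369.9, 396, 268 and 263, a difference of -0.084 (SE 0.27). As for Col1a1, PBS tumor 4 and PIIO-1 tumor 1 were the highest.

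Col14a1, a FACIT of fibroblasts, spread most of the tested members. It had 3.02 normalized counts (3 reads) in PIIO-1 tumor 3 and 103 in PIIO-1 tumor 1, with a difference of -0.34 (SE 0.75). Col22a1, a FACIT of tissue junctions such as that of muscle and tendon, stood at 46 ± 18.3 under PBS and 28.7 ± 16.1 under PIIO-1 (difference -0.76, SE 0.44, unadjusted p = 0.109). It was -0.42 without PIIO-1 tumor 5, which held the lowest value, 9.08. Col9a3 and Col20a1 differed by -0.22 (SE 0.16) and -0.054 (SE 0.21).

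Of the type VI chains, 4 of 6 were tested and 0 were called, with 3 higher and 1 lower. Col6a1 stood at 7157, 9808, 8889, 9378 and 7956 under PBS and 10534, 8362, 10508, 7732 and 11958 under PIIO-1, a difference of 0.18 (SE 0.12). Col6a2, its partner, stood at 1696, 2478, 2241, 2898 and 2122 under PBS and 3074, 2187, 3044, 2051 and 3095 under PIIO-1 (difference 0.23, SE 0.16). The Col6a1 difference was 0.10 without PIIO-1 tumor 5, and that of Col6a2 0.13 without PBS tumor 1. For both genes PIIO-1 tumors 1, 3 and 5 held the 3 highest of all 10 values, while PIIO-1 tumors 2 and 4 lay among the PBS tumors. Col6a3, the large chain that completes the molecule, differed by -0.17 (SE 0.25). Its lowest values were 1264 in PIIO-1 tumor 5 and 1389.9 in PBS tumor 1, against at least 2174 in the other 8, so that in PIIO-1 tumor 5 Col6a1 was highest and Col6a3 lowest. Col6a5 ran from 2.87 to 54.6, and Col6a4 and Col6a6 had means under 10.

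Among the remaining kinds, Col18a1 (chromosome 10, 77052178 to 77166548, minus strand) stood at 32225, 35208, 32717, 34966 and 30184 in PBS tumors. In PIIO-1 tumors it stood at 36066, 30747, 32384, 27541 and 33606, a difference of -0.047 (SE 0.077), with overlapping groups and a 1.31-fold range. Col15a1, the other multiplexin, known from the basement membrane zone of vessels and muscle, stood at 74.5, 70.2, 85.7, 203 and 109 under PBS and 204, 70.5, 102, 92.1 and 124 under PIIO-1 (difference 0.15, SE 0.32). PBS tumor 4 and PIIO-1 tumor 1 were high, and the other 8 tumors lay at or below 124. Because the strand setting of the counting is not given, reads in Col18a1 and the opposite-strand gene Slc19a1 cannot be told apart where they overlap. The same holds for Col9a3 with Tcfl5, for Col10a1 with Nt5dc1, and for the overlapping ends of Col4a1 and Col4a2.

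Col8a1, a short chain of vessel walls and of the cornea's Descemet membrane, had the smallest p among the abundant members. It stood at 3993, 4172, 4111, 3706 and 3819 under PBS and at 4162, 3294, 4100.4, 3195 and 2977 under PIIO-1. The 3 lowest values of all 10 were PIIO-1 tumors 2, 4 and 5, while PIIO-1 tumors 1 and 3 lay inside the PBS range. The difference was -0.17 (SE 0.092, unadjusted p = 0.0874, adjusted p = 0.837) and fell in size to -0.11 without PIIO-1 tumor 5. Its partner Col8a2 was low, at 28.7, 10.7, 8.98, 14 and 23.3 under PBS and 10.9, 25.4, 16.1, 30.7 and 5.45 under PIIO-1 (difference -0.040, SE 0.46). All 5 PBS values lay inside the range of the PIIO-1 tumors, and Col10a1 lay between 0 and 7.83.

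Col23a1, a transmembrane collagen, was the gene with an unadjusted p under 0.05. It stood at 5.73, 6.83, 18.8, 10.9 and 8.61 under PBS and at 11.9, 32.3, 19.1, 14.8 and 15.4 under PIIO-1. The groups overlapped, since PBS tumor 3 lay above 3 PIIO-1 tumors, and the libraries held only 6 to 33 reads of it. The difference was 0.85 (SE 0.35, unadjusted p = 0.0325, adjusted p = 0.837). Without 1 tumor it ran from 0.64 to 1.08, with unadjusted p up to 0.0885.

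Col17a1, the transmembrane collagen of hemidesmosomes that anchors basal epithelial cells, stood at 172, 351, 257, 198 and 307 under PBS and 231, 254, 277, 265 and 249 under PIIO-1. Its means of 257 ± 74.3 and 255 ± 17.5 (SD, n = 5 each) were slightly lower under PIIO-1, while the difference of mean log2 values was 0.036 (SE 0.17), and edgeR and DESeq2 gave -0.020 and -0.015. Col13a1 had a mean of at least 10 in PBS tumors only and differed by -0.53 (SE 0.44). Col7a1, the anchoring fibril chain made by keratinocytes and fibroblasts, stood at 1123, 1335, 1359, 1619.7 and 1184 under PBS and 1273, 1137, 1198, 1427 and 2267 under PIIO-1 (difference 0.10, SE 0.17). It was highest in PIIO-1 tumor 5, and the difference was -0.066 without that tumor. Of the keratinocyte markers, 7 of 8 were in the table and 2 had a mean of at least 10, Krt14 and Krt5. The 7 summed to between 609 and 1221 under PBS and between 838 and 1380 under PIIO-1. Krt5 alone ran from 1.96 in PIIO-1 tumor 2 to 139 in PIIO-1 tumor 5. Krt1, Krt10, Ivl, Lor and Trp63 were at 0 in some tumors. The part of skin in these values was not tested. Col26a1 and Col28a1 stayed under 6 normalized counts in every tumor.

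The members differed widely in their spread between tumors. The SD between tumors within groups on the log2 scale was 1.15 for Col3a1, 0.73 for Col1a2 and 0.67 for Col1a1, higher than in 99.5%, 96.3% and 95% of all genes tested. It was 0.12 for Col18a1, 0.14 for Col4a2, 0.17 for Col4a1 and 0.17 for Col5a3, near or below the median of all genes (0.168). The SD that counting error alone gives was 0.039 for Col3a1 and Col1a1, 0.38 for Col23a1 and 0.43 for Col13a1. The highest tumor was under 2-fold above the lowest for 12 of the 30 members, 2 to 5-fold above for 11 and over 5-fold for 7.

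**Figure D3:**
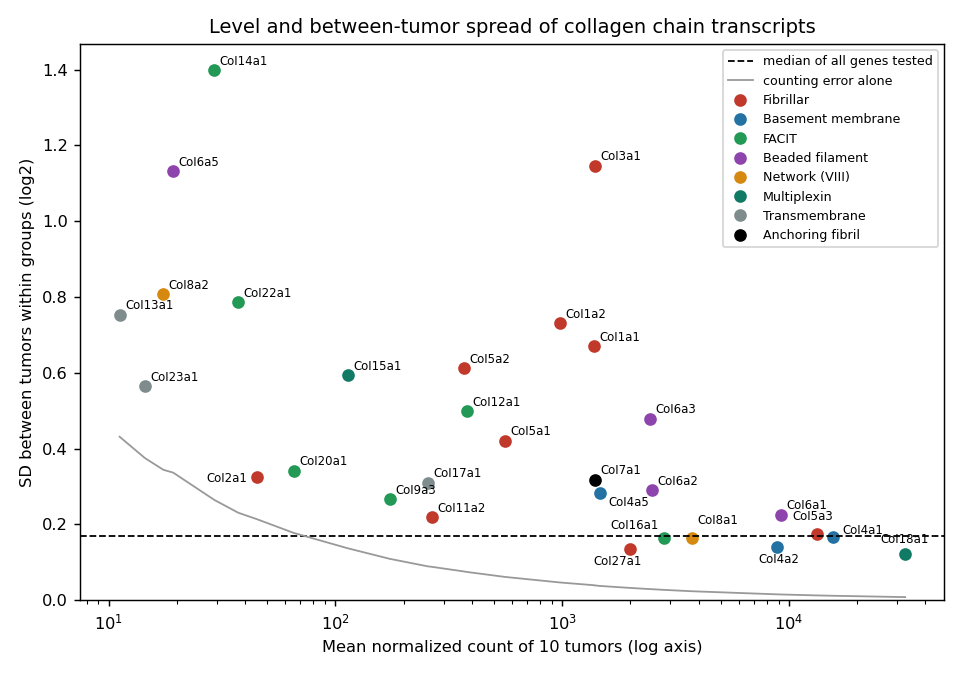
SD between tumors within groups (log2 scale) against mean normalized count of 10 tumors (log axis) for the 30 tested collagen chain genes, coloured by class. Col3a1, Col1a1 and Col1a2 lie far above both the median of all genes (dashed line, 0.168) and the SD from counting error alone (grey line), while Col18a1 and the type IV chains Col4a1 and Col4a2 lie at or below the dashed line.

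Several members were highest in the same tumors. PIIO-1 tumor 1 and PBS tumor 4 were the highest 2 of the 10 tumors for 8 of the 30 genes: Col1a1, Col1a2, Col3a1, Col5a1, Col5a2, Col12a1, Col15a1 and Col27a1. Neither tumor was the lowest for any of the 30 genes, PIIO-1 tumor 1 being the highest for 10 and PBS tumor 4 for 7, while PBS tumor 1 was the lowest for 8 and PIIO-1 tumor 4 for 7. How often these 2 tumors were highest over all genes was not counted, so the pattern is not shown to be particular to collagen genes. PBS tumor 4 had the fewest reads and lay far out on the principal components of all genes. PIIO-1 tumor 1 had the highest value on the first of these components. Without both high tumors, 11 of 30 genes were again higher in PIIO-1 tumors, 0 were called, and the median difference was -0.051.

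Of the 10 fibroblast markers, 7 had their highest value in PIIO-1 tumor 1, among them Dcn (decorin, a proteoglycan that binds collagen fibrils) at 498 against at most 317 elsewhere. Dpt, which encodes dermatopontin, stood at 82.6 there, against at most 30.2 in the other tumors. Thy1, the most abundant marker of the list, went the other way, with its lowest value of the 10 tumors there (1180). Pi16 (388) and Fap (44.8) were not at their highest there. The share of all genes with their highest value in PIIO-1 tumor 1 was not counted. In PBS tumor 4, 0 of the 10 fibroblast markers but 3 of 6 pericyte markers were highest. The summed fibroblast list, led by Thy1 (also a T cell gene) and Pi16, lay between 2105 and 3287 in PBS tumors. In PIIO-1 tumors it lay between 2397 and 3208, with 2693 in PIIO-1 tumor 1 and 2416 in PBS tumor 4. The summed pericyte list, led by Pdgfrb and Cspg4, lay between 246 and 531 under PBS and between 201 and 479 under PIIO-1, and those highest values were in PBS tumor 4 and PIIO-1 tumor 1. The part of fibroblast or pericyte number in the type I and III values was not tested.

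**Figure D4:**
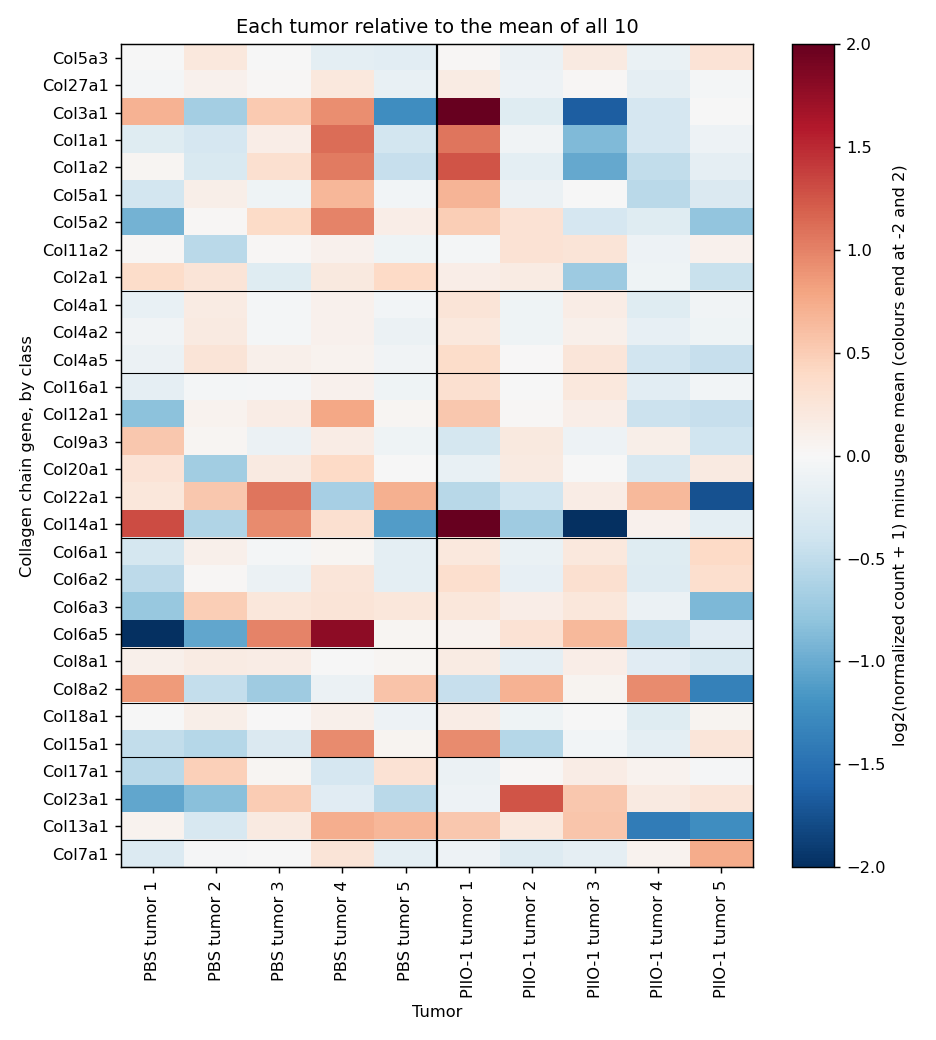
Level of each tested collagen chain gene in each tumor relative to the gene's mean of all 10 (colour, log2 scale, PBS tumors left of the line and PIIO-1 tumors right). PBS tumor 4 and PIIO-1 tumor 1 are red for Col3a1, Col1a1, Col1a2, Col5a1, Col5a2, Col12a1 and Col15a1, while the rows of Col4a1, Col4a2 and Col18a1 stay pale.

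Chains of 1 molecule were then compared across the 10 tumors, beside Col3a1 with Col1a1 and Col15a1 with Col18a1, which are chains of different molecules. Of 8 fixed pairs 7 could be used, since Col4a6 was too low. Tumors of both groups enter, both genes of a pair share the library and its scaling, and p-values come from 100000 permutations adjusted over 7 pairs. Other gene pairs were not compared, so a high r is not shown to be particular to chain partners. Col1a1 and Col1a2 had r = 0.98 (permutation p = 7e-05, adjusted p = 0.000245) and rho = 0.90 (permutation p = 0.00086, adjusted 0.00205). Without PBS tumor 4 and PIIO-1 tumor 1 r was 0.93. Col4a1 and Col4a2 had r = 0.96 (permutation p = 7e-05, adjusted p = 0.000245) and rho = 0.89 (permutation p = 0.0013, adjusted 0.00227), with r = 0.92 without the 2 tumors farthest from the median. These are the genes whose start regions are printed above with their shared bases in capitals.

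Col6a1 and Col6a2, which lie on 1 strand of chromosome 10 with 85162 bases between them, had r = 0.94 (permutation p = 0.00018, adjusted p = 0.00042). Their rho was 0.99 (permutation p = 1e-05, the smallest that the permutations can give, adjusted 7e-05) and r was 0.92 without the 2 farthest tumors. Col3a1 and Col1a1, genes of different molecules, had r = 0.87 (permutation p = 0.00073, adjusted p = 0.00128) and rho = 0.90 (permutation p = 0.00088, adjusted 0.00205). Here r was 0.69 without PIIO-1 tumors 1 and 3. Col5a1 and Col5a2 had r = 0.76 (permutation p = 0.0107, adjusted p = 0.015) and rho = 0.66 (permutation p = 0.0438, adjusted 0.0614). This relation rests on PBS tumor 4 and PIIO-1 tumor 1: r was 0.52 without them, and 0.64 (adjusted permutation p = 0.0846) without PBS tumor 4 alone.

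For 2 pairs the permutation test did not pass, which does not show that the genes vary apart. Col8a1 and Col8a2 had r = -0.029 (permutation p = 0.934, adjusted p = 0.934) and rho = -0.30 (permutation p = 0.408, adjusted 0.408). Their r was -0.59 without PIIO-1 tumors 4 and 5 and -0.70 without PIIO-1 tumor 5 alone, so it rests on single tumors. Col15a1 and Col18a1 had r = 0.46 (permutation p = 0.18, adjusted p = 0.21) and rho = 0.31 (permutation p = 0.387, adjusted 0.408), with r = -0.13 without PBS tumor 4 and PIIO-1 tumor 1.

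**Figure D5:**
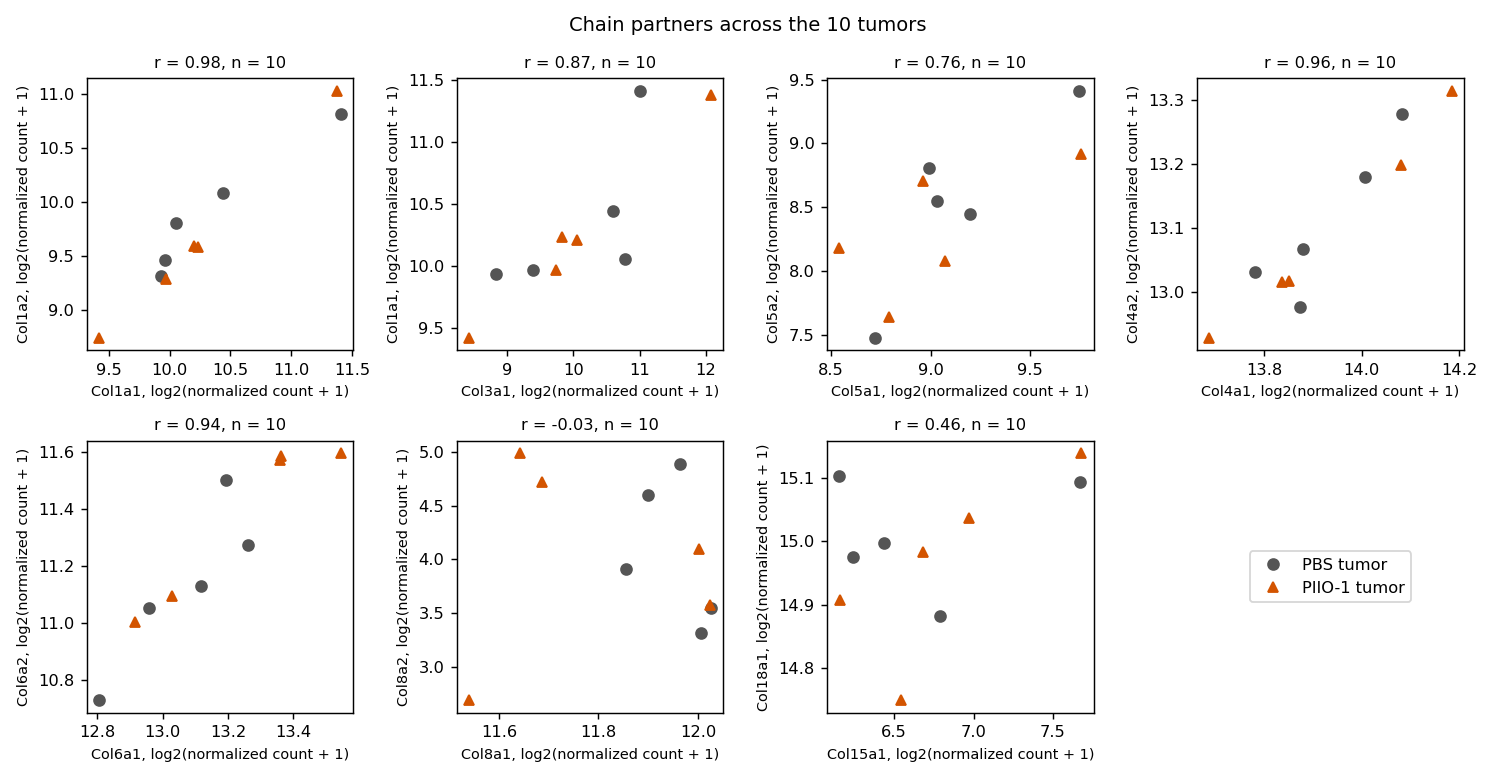
Each chain pair across the 10 tumors on log2(normalized count + 1) axes (circles PBS, triangles PIIO-1), with Pearson's r above each panel. Col1a1 with Col1a2, Col4a1 with Col4a2 and Col6a1 with Col6a2 fall close to a line with both groups mixed along it, while Col8a1 with Col8a2 and Col15a1 with Col18a1 scatter.

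The ratio of the chains was steadiest for type IV. Col4a1 held between 1.68 and 1.86 times the normalized counts of Col4a2 in the 10 tumors, a coefficient of variation of 3.39%, with 1.76 ± 0.0652 under PBS and 1.78 ± 0.0604 under PIIO-1 (SD, n = 5 each). Per kb of exon the mean ratio was 1.57, and per kb of the longest transcript 1.73. Col1a1 over Col1a2 ran from 1.19 in PBS tumor 1 to 1.61 in PIIO-1 tumor 4 (coefficient of variation 10.5%). Its group means were 1.38 ± 0.151 and 1.51 ± 0.138, with overlapping values. Type I collagen holds 2 chains of Col1a1 for each chain of Col1a2; the ratio of transcripts was 2.75 per kb of exon but 1.31 per kb of the longest transcript, because the gene model of Col1a2 contains 12.4 kb of exon against a longest transcript of 5.35 kb. Col3a1 over Col1a1 ran from 0.469 in PBS tumor 5 to 1.65 in PBS tumor 1, a coefficient of variation of 44.8%, so types III and I were not in a fixed proportion. Col6a1 over Col6a2 lay between 3.24 and 4.22.

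Genes that modify, fold, process, cross-link and bind collagen were followed as 5 lists. Of 46 genes 45 were in the table and 39 were tested; 0 were called, with 20 higher and 19 lower in PIIO-1 tumors and a median difference of 0.0027. At an unadjusted p under 0.05 there were 2 of 39 (5.13%, beside 5.63% of all genes), both lower (2.77% of all genes were lower at that p). One was Bmp1, the protease that removes the C-terminal propeptide of fibrillar procollagens, at 7059 ± 387 under PBS and 6379 ± 388 under PIIO-1 (difference -0.15, SE 0.054, unadjusted p = 0.0199, adjusted p = 0.837). The other was Crtap, a subunit of the prolyl 3-hydroxylation complex, at 1022 ± 83.2 and 913 ± 66.4 (difference -0.16, SE 0.071, unadjusted p = 0.0407).

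Of 12 hydroxylase genes 7 were higher and 5 lower, with P3h1, the enzyme partner of Crtap, at -0.11 (SE 0.057). All 4 tested propeptide-processing genes were lower, with Pcolce, an enhancer of Bmp1, at -0.10 (SE 0.062). Of 10 tested genes of folding, glycosylation and export 6 were higher and 4 lower. In that list Mia2 differed by -0.056 (SE 0.035) and Serpinh1, which encodes the collagen chaperone HSP47, by 0.098 (SE 0.088). Of 5 cross-linking genes 4 were higher and 1 lower, Loxl3 at -0.18 (SE 0.096), and Lox, the founding lysyl oxidase, had the next smallest p, at 0.18 (SE 0.49). Of 8 tested receptor genes 3 were higher and 5 lower, with the integrin genes Itga2 at 0.13 (SE 0.094) and Itga1 at 0.17 (SE 0.18).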

How the data were processed

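RNA of 10 whole tumors was sequenced. Per the submitters' processing notes, HISAT2, featureCounts and DESeq2 were used with GRCm38. For the annotation, the strand setting and tool versions, these were not given in the sources used here. Normalized counts were deposited by the authors, a signal made by dividing gene counts by a size factor per tumor. Whole reads were recovered from the steps of that signal, with 100% of values whole within 0.05 of a read, and gave depths of 18843192 to 37581521 reads, so the lowest members rest on few reads.

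Genes with a mean of at least 10 were tested on log2(normalized count + 1) with limma 3.58.1 in R 4.3.3 (trend, Benjamini-Hochberg adjustment over 16767 genes, threshold 0.05). edgeR 4.0.16 and DESeq2 1.42.0 were run on the recovered reads as alternatives, beside other pseudocounts, filters, scalings, weights, a replicate block and tumors left out. On simulated data with these depths, limma recovered 58% of 50 genes changed 1.5-fold and 72% of 50 changed 2-fold among 16767 genes. The changed genes were drawn from all genes, whose median SD within groups was 0.168, against 0.333 for the tested collagen chain genes. These rates therefore cannot be carried over to the collagen chain genes. Exon lengths came from a GRCm38 annotation and start regions from RefSeq (GRCm38.p6).

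Values per tumor are given for the 2 members of each class with the highest mean and for members with an unadjusted p under 0.05, with further members described after their values were seen. Pathway lists are given by counts and the 2 smallest p, marker lists by their sums and 2 highest genes. Further markers, such as Dcn and Dpt, were named after their values were seen. Members and lists were chosen with earlier results of these data known.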

Additional observations from a re-analysis of the deposited data

Results flagged for a closer look

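Of 60 groups (30 genes in each of PBS and PIIO-1), 2 held 1 tumor far from the other 4 by Dixon's test, where chance gives about 1 in 20. Col6a3 was 1389.9 normalized counts in PBS tumor 1, against 2741 to 3299 in the other PBS tumors. Col11a2 was 180.4 in PBS tumor 2, against 246 to 279 in the other PBS tumors.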

How the results depend on the processing

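0 collagen chain genes were called under any of the 23 alternatives. DESeq2 called 1 gene in all, where limma and edgeR called 0. Tested members with a mean of 561 (Col5a1) or less had no adjusted p from DESeq2 and could not be called there. The number of members with a higher mean log2 value was 18 when both PBS tumor 4 and PIIO-1 tumor 5 were dropped and 10 to 16 with 1 tumor left out. The direction of 12 of the 30 members held under every alternative run, and 18 reversed under at least 1 (68 of 683 values), all with intervals that include 0. With that pair left out, the reversed differences were Col5a3 -0.0049, Col5a2 0.15, Col6a3 0.071, Col12a1 0.20, Col4a5 0.015, Col5a1 0.10, Col3a1 0.12, Col1a1 0.15, Col4a2 0.026, Col17a1 -0.037, Col8a2 0.26. With a pseudocount of 5, the reversed differences were Col6a5 -0.0094. With edgeR, the reversed differences were Col6a5 -0.37, Col3a1 0.21, Col14a1 0.19, Col17a1 -0.020, Col8a2 0.026. With DESeq2, the reversed differences were Col6a5 -0.41, Col3a1 0.21, Col14a1 0.20, Col17a1 -0.015, Col8a2 0.039. When PBS tumor 4 and PIIO-1 tumor 1 were dropped (chosen after seeing the data), the reversed differences were Col20a1 0.067, Col4a1 -0.041, Col17a1 -0.010, Col8a2 0.033. With TMM scaling, the reversed differences were Col4a1 -0.0038. With upper-quartile scaling, the reversed differences were Col4a1 -0.0024. With array weights, the reversed differences were Col8a2 0.29. With 1 tumor left out, the differences that changed sign ranged as follows: Col6a5 -0.39 to 0.58, Col7a1 -0.066 to 0.18, Col6a3 -0.38 to 0.029, Col18a1 -0.091 to 0.0060, Col15a1 -0.071 to 0.40, Col12a1 -0.30 to 0.10, Col20a1 -0.24 to 0.037, Col4a5 -0.20 to 0.0093, Col5a1 -0.30 to 0.039, Col3a1 -0.61 to 0.30, Col14a1 -0.97 to 0.21, Col1a1 -0.40 to 0.14, Col4a1 -0.061 to 0.063, Col4a2 -0.066 to 0.031, Col17a1 -0.10 to 0.16, Col8a2 -0.28 to 0.29. The sign of 14 of the 30 held with any 1 tumor left out, and for 13 of these, Col23a1 being the exception, the size moved by over 1.5 times. The correlation of Col5a1 and Col5a2 then ranged from 0.64 to 0.80 and that of Col8a1 and Col8a2 from -0.70 to 0.20. Per kb of the longest transcript in place of all exons, the mean ratios were 1.31 for Col1a1 over Col1a2, 0.993 for Col3a1 over Col1a1, 1.29 for Col5a1 over Col5a2, 1.73 for Col4a1 over Col4a2 and 4.49 for Col6a1 over Col6a2, by construction of the lengths. The cause of the other changes was not tested. With the replicate number as a block, 0 genes were called, 885 had an unadjusted p under 0.05 against 944, and 11 of 30 members were higher. Same-numbered tumors had deviations that correlated between -0.21 and 0.095. The labels give no pairing, and none was used in the main fit. Whether same-numbered tumors are related cannot be told from these values.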
